A study of Mus musculus with 25 samples.

Results

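The 10 genes described here encode the ligands, receptors, latency proteins and feedback inhibitor of transforming growth factor beta (TGF-beta) signalling. They are the 3 ligands Tgfb1, Tgfb2 and Tgfb3, the 3 receptors Tgfbr1, Tgfbr2 and Tgfbr3, the 3 latent TGF-beta binding proteins Ltbp1, Ltbp2 and Ltbp3, and Smad7. They were chosen by name. All 10 were among the 47729 genes of a bulk RNA-sequencing table, where each passed the filter on low counts that left 15773 genes to test, and among the 31053 features of 5 single-cell matrices.

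TGF-beta is secreted in a latent form. Latent TGF-beta binding proteins anchor that form in the extracellular matrix, and integrins and proteases release the active ligand. Active ligand binds TGFBR2, which brings in and phosphorylates TGFBR1, and TGFBR1 then activates SMAD2 and SMAD3. SMAD7 is induced by the pathway and blocks the receptors. In injured lung, TGF-beta is best known for driving fibroblasts to produce collagen and contractile proteins.

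All mice carried Col1a1-Cre-ERT2, a Cre recombinase that tamoxifen switches on and that the Col1a1 promoter confines to collagen-producing cells, together with floxed alleles of Fas (Fas fl/fl), the gene of a death receptor. Naive mice received no bleomycin. The other mice received bleomycin, a drug that injures the lung and causes fibrosis, through the trachea and were studied 3 or 6 weeks later. Mice given tamoxifen are called Fas-/- and mice of the same genotype given corn oil are called Fas+/+, so the deletion and the tamoxifen cannot be told apart. Each of the 5 groups had 4 bulk libraries of sorted lung cells that lacked CD45, CD31 and CD326 (Lin- cells), and 1 single-cell library from a pool of 4 mice. The study's methods give the number of replicates as individual animals, and the labels number the 4 bulk libraries of a group as replicates.

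The bulk libraries held 11819700 to 25189096 counts. The sort was meant to remove endothelial cells, but all 9 blood endothelial markers (Pecam1, which encodes CD31, Cdh5, Kdr and 6 others) were above 0 in every library. Their summed level was 175 to 490.3 counts-per-million (CPM) in naive libraries, 2854 to 11057 in 3-week Fas+/+, 705 to 9658 in 3-week Fas-/-, 508 to 1989.9 in 6-week Fas+/+ and 119.6 to 3088 in 6-week Fas-/-. Replicate 1 of 3-week Fas+/+ (11057) and replicate 4 of 3-week Fas-/- (9658) stood apart from all other libraries. The 8 profibrotic fibroblast markers summed to 3494 and 6751 CPM in these libraries, against 14794 to 24517 in the other 3-week libraries. Replicate 2 held the most endothelial marker RNA in each 6-week group, and these 4 libraries, the richest of each bleomycin group, are left out together in 1 alternative fit below. Fas did not separate the genotypes in these counts, which cover the whole gene while tamoxifen removes 1 exon. Its CPM was 41.0 ± 11.3 in 3-week Fas+/+ and 44.2 ± 14.2 in 3-week Fas-/- (SD, n = 4), and 31.4 ± 6.24 and 40.4 ± 4.59 at 6 weeks, against 22.1 ± 1.25 in naive libraries. The highest Fas value of each 3-week group was in its endothelial-rich library (57.7 CPM in Fas+/+ and 64.9 in Fas-/-). The part of endothelial RNA in these Fas values was not tested. In bulk samples, fewer cells of a type and less RNA per cell cannot be told apart.

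Tgfb1, Tgfbr2 and Ltbp2 were the genes of the 10 that were called higher than naive in both genotypes at 3 weeks. The promoters of all 3 are shown for that reason. Each line gives the 250 bases before the transcript start from RefSeq (GRCm38.p6), 5′ to 3′ on the gene's strand. Capitals mark 3 motifs searched on both strands, namely CAGAC (a SMAD element), TGANTCA (an AP-1 element) and GGGCGG (an Sp1 box). No matches overlapped in these windows.
Tgfb1, chr7:25686752-25687001, plus strand: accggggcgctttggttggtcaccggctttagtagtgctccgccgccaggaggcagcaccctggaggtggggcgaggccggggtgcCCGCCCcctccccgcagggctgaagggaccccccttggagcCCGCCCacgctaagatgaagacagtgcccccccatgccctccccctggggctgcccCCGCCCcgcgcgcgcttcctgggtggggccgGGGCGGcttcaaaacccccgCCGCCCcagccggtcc
Tgfbr2, chr9:116175364-116175613, minus strand: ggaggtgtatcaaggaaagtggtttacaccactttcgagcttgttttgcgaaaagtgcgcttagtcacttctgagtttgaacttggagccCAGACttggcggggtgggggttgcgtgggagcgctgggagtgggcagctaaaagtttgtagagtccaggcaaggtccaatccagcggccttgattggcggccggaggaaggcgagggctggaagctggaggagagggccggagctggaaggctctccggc
Ltbp2, chr12:84876492-84876741, minus strand: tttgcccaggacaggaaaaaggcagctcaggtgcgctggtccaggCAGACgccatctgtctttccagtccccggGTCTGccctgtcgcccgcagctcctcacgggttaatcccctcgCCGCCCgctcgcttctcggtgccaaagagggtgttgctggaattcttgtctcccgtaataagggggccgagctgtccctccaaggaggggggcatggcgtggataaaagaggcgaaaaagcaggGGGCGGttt
The Tgfb1 window held 5 matches to GGGCGG and no match to CAGAC. The Tgfbr2 window held 1 match to CAGAC, and the Ltbp2 window held 2 to CAGAC and 2 to GGGCGG. Among 32851 RefSeq windows of the same length, 42.2% held CAGAC, 6.75% held TGANTCA and 32.7% held GGGCGG, so these letters are common and a match is only a description. None of the 3 windows held TGANTCA. A RefSeq window was found for 7 of the 10 genes.

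Per length, the 10 genes spanned a wide range in naive Lin- cells. Levels are given as CPM per kilobase of merged exon (RPKM), mean ± SD over 4 libraries. Ltbp2 was at 121 ± 17.2, Tgfb3 at 111 ± 16.7, Tgfbr2 at 107 ± 3.21 and Tgfbr3 at 86.9 ± 3.88 RPKM. Ltbp3 followed at 64.9 ± 6.60, Ltbp1 at 52.3 ± 1.77, Smad7 at 21.6 ± 1.65 and Tgfb2 at 14.2 ± 2.12 RPKM. Tgfbr1, at 7.94 ± 0.637, and Tgfb1, at 7.38 ± 0.631 RPKM, were lowest. Ltbp2, Tgfb3 and Tgfbr2 lay within an SD of each other, as did Tgfbr1 and Tgfb1. At 3 weeks in Fas+/+ mice the ligand order had changed at its lower end: Tgfb3 was at 87.1 ± 21.3, Tgfb1 at 31.4 ± 7.74 and Tgfb2 at 10.1 ± 2.38 RPKM.

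**Figure D1:**
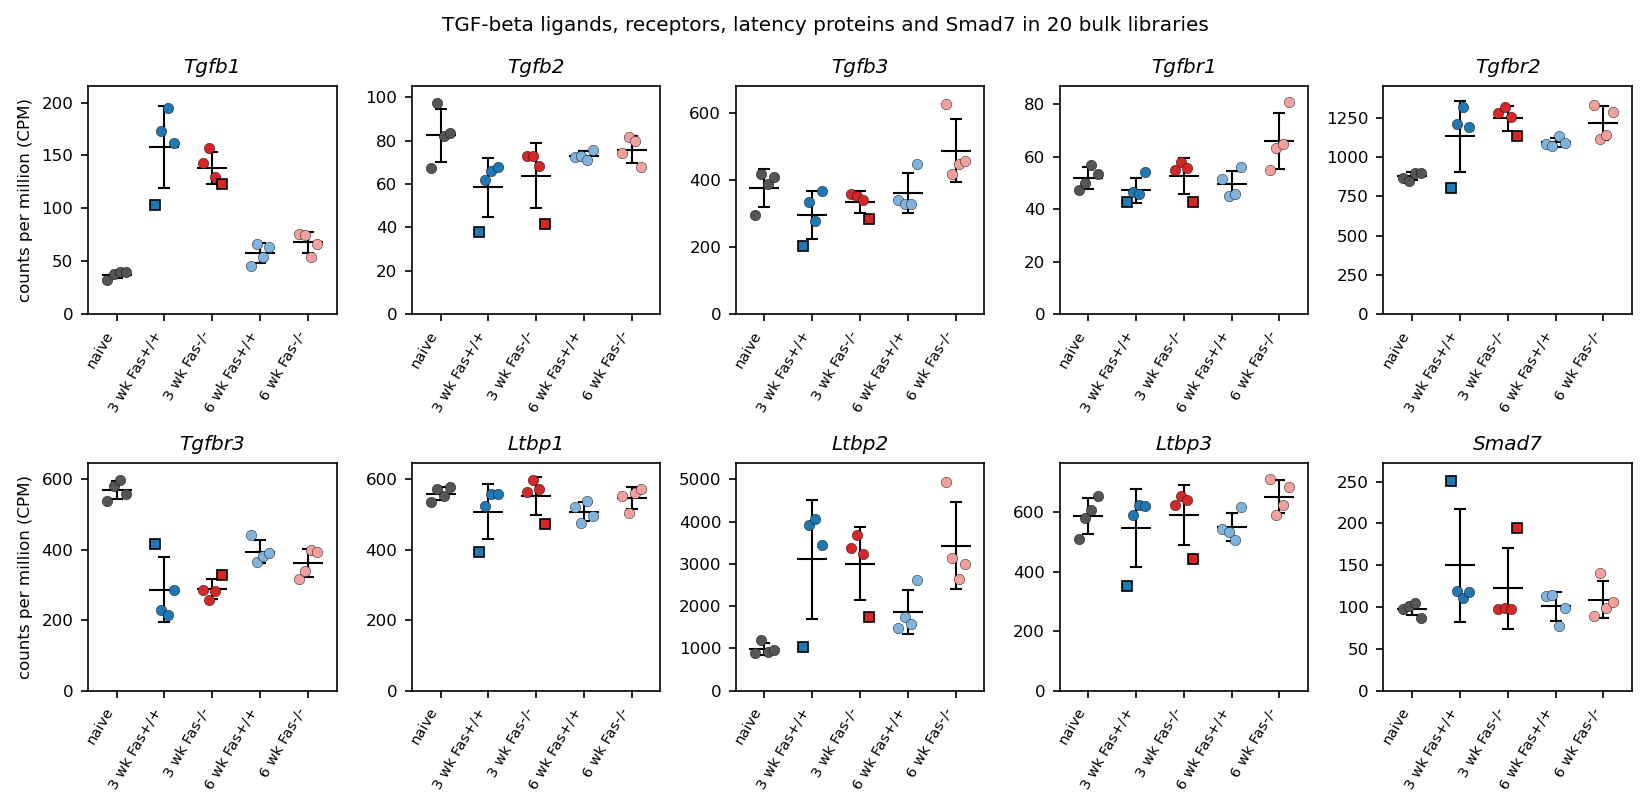
CPM of each of the 10 genes in the 20 bulk libraries (points, 4 per group) with the group mean and SD (bars); squares mark replicate 1 of 3-week Fas+/+ and replicate 4 of 3-week Fas-/-, the libraries richest in endothelial marker RNA. Tgfb1 lay at 32.6 to 39.4 CPM in naive libraries and at 103 to 195 in the 3-week libraries.

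Tgfb1 encodes the ligand most tied to fibrosis, and its transcript rose after bleomycin in both genotypes and at both times. In naive libraries Tgfb1 was at 32.6, 37.5, 39.3 and 39.4 CPM in replicates 1 to 4. In 3-week Fas+/+ libraries it was at 103, 173, 195 and 162 CPM. In 3-week Fas-/- libraries it was at 143, 157, 129 and 123 CPM. All 8 libraries at 3 weeks lay above all 4 naive libraries. The log2 fold change over naive was 2.09 ± 0.17 (SE) in Fas+/+ (4.25-fold, edgeR adjusted p = 3.79e-07) and 1.89 ± 0.17 in Fas-/- (3.71-fold, adjusted p = 1.27e-06).

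At 6 weeks Tgfb1 was at 45.8, 66.5, 54.0 and 63.6 CPM in Fas+/+ libraries. In 6-week Fas-/- libraries it was at 75.2, 74.9, 54.2 and 66.4 CPM. Both groups were above every naive library and below every 3-week library of their genotype. Against naive, the log2 fold change was 0.63 ± 0.16 in Fas+/+ (adjusted p = 0.0297) and 0.86 ± 0.16 in Fas-/- (adjusted p = 0.00448). The Fas+/+ call was lost in 7 of the 8 fits that each left out 1 of these libraries, with log2 fold changes of 0.55 to 0.66 (adjusted p 0.0519 to 0.141). Between 3 and 6 weeks Tgfb1 fell by 1.46 ± 0.16 on the log2 scale in Fas+/+ (adjusted p = 5.57e-05) and fell by 1.03 ± 0.16 in Fas-/- (adjusted p = 0.00214).

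Lymphatic endothelial and platelet marker sums were also higher than naive at 3 weeks. The lymphatic endothelial markers summed to 8.98 to 22.002 CPM in naive libraries, 265 to 403 in 3-week Fas+/+, 98.9 to 554 in 3-week Fas-/-, 28.6 to 149 in 6-week Fas+/+ and 8.04 to 313 in 6-week Fas-/-. The platelet markers summed to 2.39 to 4.03, 11.3 to 24.04, 14.6 to 21.1, 6.78 to 71.3 and 3.50 to 8.81 CPM in the same order. Erythroid markers went the other way, from 2979 to 9589 CPM in naive libraries to at most 234.8 in the bleomycin libraries. The part of these cells in the Tgfb1 result was not tested.

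Tgfb2, the ligand that depends most on the co-receptor betaglycan, was called in 1 comparison, that of 3-week Fas+/+ with naive. It was at 67.2 to 97.2 CPM in naive libraries and at 38.0, 62.0, 65.8 and 67.7 CPM in 3-week Fas+/+ libraries. The groups overlapped. Tgfb2 fell by 0.50 ± 0.17 on the log2 scale in 3-week Fas+/+ (adjusted p = 0.0280), and the call was lost without 3-week Fas+/+ replicate 1 (-0.35, adjusted p = 0.0700), without naive replicate 2 (-0.41, adjusted p = 0.0902) and without naive replicate 4 (-0.50, adjusted p = 0.0506), and with these groups fitted alone (-0.50, adjusted p = 0.0626). The log2 fold change in 3-week Fas-/- was -0.37 ± 0.17 and was not called (adjusted p = 0.109).

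Tgfb3, the ligand with the highest level per length, was not called by the main edgeR fit in any comparison. It was at 294 to 416 CPM in naive, 201 to 366 in 3-week Fas+/+, 285 to 359 in 3-week Fas-/-, 327 to 448 in 6-week Fas+/+ and 418 to 626 in 6-week Fas-/- libraries. All 4 of the 6-week Fas-/- libraries lay above all naive and all 3-week Fas-/- libraries, though the lowest, at 418 CPM, barely passed the highest naive library, at 416. The log2 difference of 6-week Fas-/- from naive was 0.37 ± 0.17 and was not called (adjusted p = 0.228). In 3-week Fas+/+ the log2 difference from naive was -0.35 ± 0.17 (adjusted p = 0.109), and it was -0.48 (adjusted p = 0.0463) without 3-week Fas+/+ replicate 4. From 3 to 6 weeks in Fas-/- the log2 difference was 0.55 ± 0.17 (adjusted p = 0.0548). It passed the threshold with DESeq2 (0.54, adjusted p = 0.0263), with these groups fitted alone (0.55, adjusted p = 0.0493) and without the 4 libraries richest in endothelial RNA (0.55, adjusted p = 0.0254).

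Among the receptors, Tgfbr2 and Tgfbr3 moved in opposite directions after bleomycin. Tgfbr2, the ligand-binding signalling receptor, was at 869.6, 845, 899 and 901 CPM in naive libraries. In 3-week Fas+/+ libraries it was at 805, 1209, 1318 and 1195 CPM. In 3-week Fas-/- libraries it was at 1281, 1316, 1257 and 1134 CPM. Only replicate 1 of 3-week Fas+/+, the library with the most endothelial marker RNA, lay below the naive range, and the other 7 lay above it. Tgfbr2 rose by 0.37 ± 0.11 on the log2 scale in Fas+/+ (adjusted p = 0.0148) and by 0.51 ± 0.11 in Fas-/- (adjusted p = 0.00292). The Fas+/+ call was lost without naive replicate 1 (0.34, adjusted p = 0.0562) and without 3-week Fas+/+ replicate 3 (0.28, adjusted p = 0.0624), and with the groups fitted alone (0.36, adjusted p = 0.0909).

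At 6 weeks Tgfbr2 was at 1072 to 1136 CPM in Fas+/+ and at 1113 to 1329.6 CPM in Fas-/- libraries. Neither group overlapped the naive libraries. The rise was called in Fas-/- (0.47 ± 0.11, adjusted p = 0.0183) and was not called in Fas+/+ (0.32 ± 0.11, adjusted p = 0.115). The Fas+/+ difference passed the threshold with the groups fitted alone (0.32, adjusted p = 0.00683) and without the 4 endothelial-rich libraries (0.33, adjusted p = 0.00460). The Fas-/- call was lost without naive replicate 1 (0.46, adjusted p = 0.0656), naive replicate 2 (0.45, adjusted p = 0.0527) or 6-week Fas-/- replicate 4 (0.44, adjusted p = 0.0552).

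Tgfbr3 encodes betaglycan, a co-receptor that presents TGF-beta2 to the signalling receptors, and was lower at 3 weeks in both genotypes. It was at 539, 581, 597 and 558 CPM in naive libraries. In 3-week Fas+/+ libraries it was at 417, 228, 215 and 285 CPM. In 3-week Fas-/- libraries it was at 284, 256, 284 and 328 CPM. No 3-week library reached the naive range, and replicate 1 of 3-week Fas+/+ came closest to it. Tgfbr3 fell by 0.99 ± 0.16 on the log2 scale in Fas+/+ (1.99-fold, adjusted p = 0.000110) and fell by 0.98 ± 0.16 in Fas-/- (1.97-fold, adjusted p = 0.000235).

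At 6 weeks Tgfbr3 was at 443, 364, 381 and 392 CPM in Fas+/+ libraries. In 6-week Fas-/- libraries it was at 316, 341, 399 and 394 CPM. Both groups still lay below every naive library. The difference from naive was called in Fas-/- (-0.65 ± 0.15, adjusted p = 0.0181) and missed the threshold in Fas+/+ (-0.53 ± 0.15, adjusted p = 0.0559). The Fas+/+ difference passed it with RLE normalization (-0.53, adjusted p = 0.0493), DESeq2 (-0.53, adjusted p = 0.0131), the groups fitted alone (-0.52, adjusted p = 0.00209), without the 4 endothelial-rich libraries (-0.49, adjusted p = 0.00603) and without 6-week Fas+/+ replicate 1 (-0.59, adjusted p = 0.0496). The Fas-/- call was lost without naive replicate 3 (-0.63, adjusted p = 0.0523) or 6-week Fas-/- replicate 1 (-0.59, adjusted p = 0.0517).

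Tgfbr3 then rose from 3 to 6 weeks by 0.46 ± 0.15 on the log2 scale in Fas+/+ (adjusted p = 0.0377), with overlapping groups. That call was lost without 3-week Fas+/+ replicate 2 (0.37, adjusted p = 0.122), replicate 3 (0.35, adjusted p = 0.122) or replicate 4 (0.46, adjusted p = 0.0688) and without 6-week Fas+/+ replicate 1 (0.41, adjusted p = 0.111), with no filter on low counts (0.46, adjusted p = 0.0571) and with the groups fitted alone (0.46, adjusted p = 0.143). In Fas-/- the log2 difference was 0.33 ± 0.15 (adjusted p = 0.186), and it was 0.43 (adjusted p = 0.0131) without the 4 endothelial-rich libraries. Tgfbr1, the kinase receptor that activates SMAD2 and SMAD3, was the lowest receptor per length in naive libraries. The main edgeR fit did not call Tgfbr1 in any comparison. It lay between 42.6 and 57.8 CPM in every naive, 3-week and 6-week Fas+/+ library, and at 54.9, 63.2, 64.9 and 80.8 CPM in 6-week Fas-/- libraries. The 6-week Fas-/- difference from naive was 0.35 ± 0.12 on the log2 scale (adjusted p = 0.0891). It passed the threshold without 6-week Fas-/- replicate 1 (0.43, adjusted p = 0.0436) and without the 4 endothelial-rich libraries (0.36, adjusted p = 0.0422). From 3 to 6 weeks in Fas-/- the Tgfbr1 log2 difference was 0.32 ± 0.12 and was not called (adjusted p = 0.0917).

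Ltbp2 showed the largest change of the latency proteins. LTBP2 belongs to this family by structure and binds fibrillin microfibrils, but it is not known to hold latent TGF-beta covalently as LTBP1 and LTBP3 do. Ltbp2 was at 883, 1192, 914 and 958 CPM in naive libraries. In 3-week Fas+/+ libraries it was at 1031, 3915, 4059 and 3442 CPM. In 3-week Fas-/- libraries it was at 3371, 3686, 3226 and 1742 CPM. Replicate 1 of 3-week Fas+/+ lay within the naive range and replicate 4 of 3-week Fas-/- was the lowest of its group, and these were the endothelial-rich libraries. The log2 fold change over naive was 1.66 ± 0.34 in Fas+/+ (3.15-fold, adjusted p = 0.00103) and 1.61 ± 0.34 in Fas-/- (3.05-fold, adjusted p = 0.00202). It was 1.94 ± 0.21 and 1.78 ± 0.21 without the 4 libraries richest in endothelial RNA.

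At 6 weeks Ltbp2 was at 1482, 1748, 1575 and 2611 CPM in Fas+/+ libraries. In 6-week Fas-/- libraries it was at 4939, 3143, 2646 and 3006 CPM. The groups did not overlap, and all 8 libraries lay above every naive library. Ltbp2 rose over naive in 6-week Fas-/- (1.80 ± 0.34, 3.48-fold, adjusted p = 0.00463) and was not called in 6-week Fas+/+ (0.91 ± 0.33, adjusted p = 0.131). The Fas+/+ difference passed the threshold with the groups fitted alone (0.91, adjusted p = 0.0107) and without the 4 endothelial-rich libraries (0.93, adjusted p = 0.00881). From 3 to 6 weeks in Fas+/+ the log2 difference was -0.75 ± 0.33 (adjusted p = 0.111), and it was -1.04 (adjusted p = 0.00393) without 3-week Fas+/+ replicate 1 alone.

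Ltbp1 and Ltbp3, which bind latent TGF-beta in the matrix, were not called in any comparison. Ltbp1 lay between 393 and 599 CPM and Ltbp3 between 351 and 714 CPM over all 20 libraries. The lowest library of both genes was replicate 1 of 3-week Fas+/+.

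Smad7, the feedback inhibitor, was not called by the main edgeR fit in any comparison. It was at 97.5, 101, 104 and 87.1 CPM in naive libraries. In 3-week Fas+/+ libraries it was at 251, 119, 111 and 118 CPM, and in 3-week Fas-/- libraries at 97.0, 99.0, 98.0 and 195 CPM. The highest library of each 3-week group was the one richest in endothelial marker RNA, and the other 3-week Fas-/- libraries lay inside the naive range. All 3-week Fas+/+ libraries lay above the naive range. In 3-week Fas+/+ the log2 difference from naive was 0.62 ± 0.26 (adjusted p = 0.0641). It passed the threshold with DESeq2 (0.62, adjusted p = 0.0415) and without 3-week Fas+/+ replicate 3 (0.74, adjusted p = 0.0446). It was 0.25 (adjusted p = 0.369) without 3-week Fas+/+ replicate 1, and 0.25 ± 0.10 (adjusted p = 0.0490) without the 4 endothelial-rich libraries. From 3 to 6 weeks in Fas+/+ the Smad7 log2 difference was -0.57 ± 0.26 and was not called (adjusted p = 0.116). The part of endothelial RNA in these Smad7 results was not tested.

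**Figure D2:**
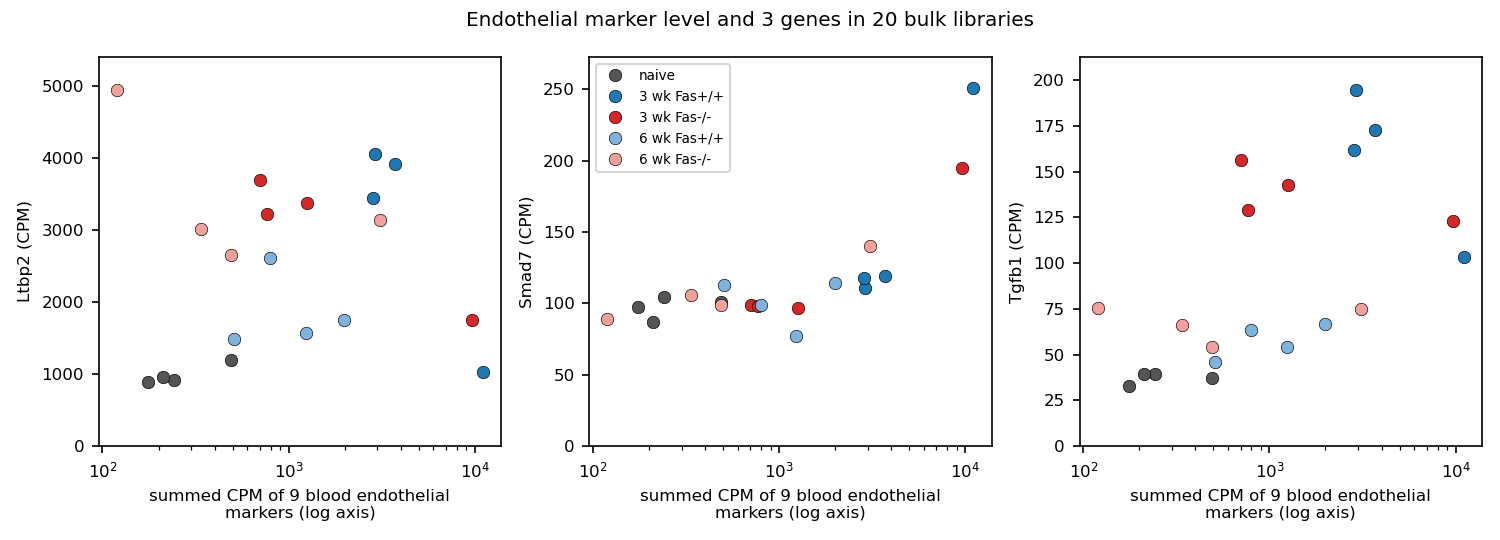
CPM of Ltbp2, Smad7 and Tgfb1 (vertical axes) against the summed CPM of 9 blood endothelial markers (log horizontal axis) in the 20 bulk libraries, coloured by group. The libraries at 11057 and 9658 marker CPM are the highest for Smad7 and the lowest of their groups for Ltbp2 and Tgfb1.

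Over the 10 genes, 3 were called higher and 2 lower than naive in 3-week Fas+/+, where 22.1% of all tested genes were higher and 19.2% lower. There were 3 higher and 1 lower in 3-week Fas-/-, beside 17.2% and 14.8% of all genes. In 6-week Fas+/+ 1 was higher and 0 lower, beside 3.57% and 1.74%, and in 6-week Fas-/- 3 were higher and 1 lower, beside 3.66% and 2.81%. The median log2 difference of the 10 genes from naive was -0.12, 0.02, -0.06 and 0.25 in these groups, beside medians of 0.01, 0.02, 0.00 and 0.01 over all tested genes. The 4 comparisons share the naive libraries.

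**Figure D3:**
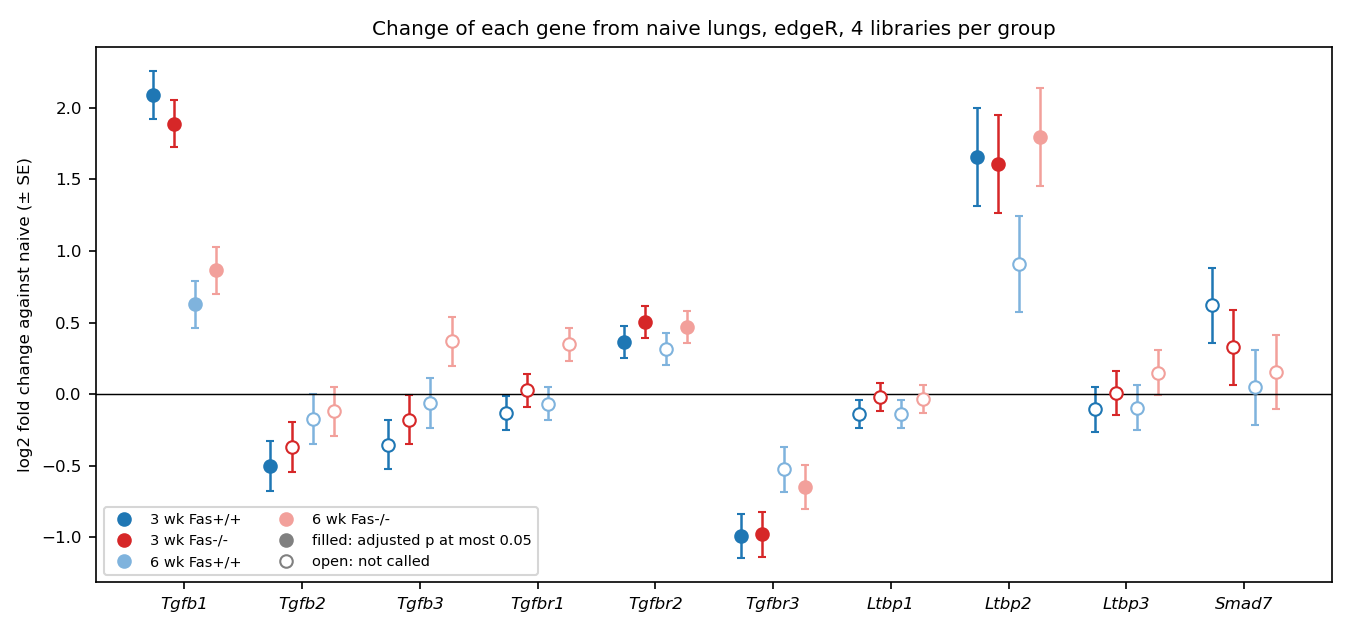
Log2 fold change of each gene from naive (points, with SE bars) in the 4 bleomycin groups, from edgeR. Filled points passed an adjusted p of 0.05, open points did not, and Tgfb1, Tgfbr2 and Ltbp2 lie above 0 and Tgfbr3 below 0 in all 4 groups. Smad7 also lies above 0, and Tgfb2 and Ltbp1 below 0, in all 4 groups.

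The comparison of Fas-/- with Fas+/+ asks whether loss of Fas in collagen-producing cells changed these genes. None of the 10 genes was called higher or lower at 3 weeks, where edgeR called 0.165% of all genes higher and 0.00634% lower, or at 6 weeks, where it called 0.0254% in each direction. At an unadjusted p under 0.05 there were 1359 genes at 3 weeks and 1273 at 6 weeks. DESeq2 also called none of the 10 at either time, where it called 0.907% of all genes higher and 0.152% lower at 3 weeks and 0.317% higher and 0.761% lower at 6 weeks. The median log2 difference of the 10 genes was 0.12 at 3 weeks and 0.20 at 6 weeks, beside -0.0024 and -0.0011 over all genes.

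In bulk, Ltbp2 had the largest genotype difference at 6 weeks among the genes described here. With the library values given above, its mean was 3434 ± 1025 CPM in Fas-/- and 1854 ± 517 CPM in Fas+/+ (SD, n = 4), and every Fas-/- library lay above every Fas+/+ library. The log2 difference was 0.89 ± 0.33, with an edgeR adjusted p of 0.436 over all genes. The two-sided exact permutation p was 0.0286, the smallest that 4 against 4 allows, and it only restates that the groups did not overlap. It was not adjusted for the choice of Ltbp2 as the largest difference. For the other genes described here the same test gave 0.0571 (Tgfbr1, Tgfbr2 and Ltbp3) to 0.629 (Smad7), all with overlapping groups. Without the 4 endothelial-rich libraries the Ltbp2 log2 difference was 0.90 ± 0.22 (adjusted p = 0.0713). Tgfbr1 differed by 0.41 ± 0.12 (adjusted p = 0.208) and Tgfb3 by 0.43 ± 0.17 (adjusted p = 0.486), each higher in Fas-/- with overlapping groups. Over all mesenchymal classes of the single-cell libraries labelled 6 weeks, given below, Ltbp2 was lower in Fas-/-.

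The change of the genotype difference between 3 and 6 weeks was not called for any of the 10 genes by edgeR. It called 0.00634% of all genes in either direction. At an unadjusted edgeR p under 0.05 there were 1210 genes, and none of the 10 was among them. DESeq2 also called none of the 10, beside 0.647% of all genes. From 3 to 6 weeks, 1 of the 10 was called higher and 1 lower in Fas+/+, beside 12% and 10.9% of all genes, and 0 higher and 1 lower in Fas-/-, beside 4.48% and 4.54%. The median log2 difference of the 10 genes was 0.0039 in Fas+/+ and 0.17 in Fas-/-, and that of all genes was -0.0028 and -0.0075.

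The other genes of the pathway were read from a list of 55, all of which were tested. It holds 17 genes of latency and activation, 17 of signal transduction and 21 known targets. In 3-week Fas+/+ 28 were higher and 6 lower than naive, and in 3-week Fas-/- 23 were higher and 9 lower, beside the percentages of all genes given above. The median log2 difference of the list was 0.51 and 0.43, with 1.04 and 0.63 among the targets.

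In the latency and activation group of 17 genes, 10 were higher and 1 lower in 3-week Fas+/+, beside 22.1% and 19.2% of all genes. In 3-week Fas-/- 11 were higher and 1 lower, beside 17.2% and 14.8% of all genes. Itgb6, a subunit of the integrin that activates latent TGF-beta at epithelial surfaces, rose by 2.70 ± 0.38 in Fas+/+ and 3.28 ± 0.39 in Fas-/- on the log2 scale (adjusted p = 4.74e-05 and 1.94e-05). Fbn2, a fibrillin of the microfibrils to which latent complexes attach, rose by 4.69 ± 0.77 and 4.52 ± 0.76 (adjusted p = 0.000164 and 0.000368). Lrrc32, which carries latent TGF-beta on cell surfaces, rose by 0.91 ± 0.16 and 0.88 ± 0.16 (adjusted p = 0.000229 and 0.000532). Ltbp4, the remaining member of the LTBP family, fell by 1.28 ± 0.13 and fell by 1.02 ± 0.13 (adjusted p = 1.79e-06 and 3.24e-05). The 9 epithelial markers summed to 50.5 to 128 CPM in naive libraries, 202 to 683 in 3-week Fas+/+ and 264 to 439 in 3-week Fas-/-, and their part in the Itgb6 result was not tested.

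In the signal transduction group of 17 genes, 6 were higher and 3 lower in 3-week Fas+/+, beside 22.1% and 19.2% of all genes. In 3-week Fas-/- 3 were higher and 3 lower, beside 17.2% and 14.8% of all genes. Genes that restrain the pathway moved both ways. Smurf1, a ubiquitin ligase of the receptors and SMADs, rose by 0.52 ± 0.06 and 0.43 ± 0.06 (adjusted p = 9.72e-06 and 9.96e-05). The corepressor Tgif1 rose by 1.36 ± 0.24 and 1.17 ± 0.24 (adjusted p = 0.000332 and 0.00163), and Skil, a second corepressor, by 0.47 ± 0.08 and 0.40 ± 0.08 (adjusted p = 0.000294 and 0.00170). The decoy receptor Bambi fell by 1.07 ± 0.12 and fell by 0.93 ± 0.12 (adjusted p = 6.03e-06 and 4.29e-05), and the corepressor Ski fell by 0.27 ± 0.06 and fell by 0.31 ± 0.06 (adjusted p = 0.00181 and 0.000990). Zfyve9, which anchors SMADs at endosomes, fell by 0.23 ± 0.07 and fell by 0.20 ± 0.07 (adjusted p = 0.0201 and 0.0459).

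Among the 21 targets, 12 were higher and 2 lower in 3-week Fas+/+, beside 22.1% and 19.2% of all genes. In 3-week Fas-/- 9 were higher and 5 lower, beside 17.2% and 14.8% of all genes. The cell cycle inhibitors Cdkn1a and Cdkn2b had the smallest adjusted p-values. Cdkn1a rose by 1.84 ± 0.16 and 1.70 ± 0.16 (adjusted p = 7.02e-07 and 3.06e-06), and Cdkn2b by 2.54 ± 0.27 and 2.33 ± 0.26 (adjusted p = 2.98e-06 and 1.50e-05). Id3, a transcriptional inhibitor, rose by 0.69 ± 0.08 and 0.63 ± 0.08 (adjusted p = 8.97e-06 and 4.29e-05). Tgfbi, a matrix protein named for its induction by TGF-beta, fell by 1.02 ± 0.21 and fell by 1.42 ± 0.21 (adjusted p = 0.00103 and 0.000141), and Nox4, an oxidase, fell by 0.65 ± 0.14 and fell by 0.44 ± 0.14 (adjusted p = 0.00137 and 0.0207). In 3-week Fas-/- Itga11, a collagen-binding integrin subunit, also fell by 0.76 ± 0.24 (adjusted p = 0.0223).

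At 6 weeks 5 of the 55 were higher and 3 lower than naive in Fas+/+, beside 3.57% and 1.74% of all genes, and 6 were higher and 2 lower in Fas-/-, beside 3.66% and 2.81%. The share of all genes called in either direction was 41.3% and 32% at 3 weeks and 5.31% and 6.48% at 6 weeks. The median log2 difference of the list was 0.05 and 0.20. Cdkn1a was still higher in both genotypes (1.41 ± 0.16 and 1.65 ± 0.16, adjusted p = 6.63e-05 and 1.39e-05), as were Id3 (0.62 ± 0.08 and 0.78 ± 0.08, adjusted p = 0.000201 and 3.55e-05) and Cdkn2b (1.72 ± 0.26 and 1.57 ± 0.26, adjusted p = 0.000698 and 0.00208). Tgfbi fell by 0.99 ± 0.21 and fell by 1.11 ± 0.21 (adjusted p = 0.00890 and 0.00463), and Ski fell by 0.31 ± 0.06 and fell by 0.22 ± 0.06 (adjusted p = 0.00389 and 0.0345). Map3k7, a kinase of the non-SMAD branch, fell by 0.22 ± 0.05 in Fas+/+ (adjusted p = 0.0171).

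In the latency group, Itgb6 was higher by 4.34 ± 0.39 in 6-week Fas+/+ (adjusted p = 8.69e-06) and by 2.58 ± 0.38 in 6-week Fas-/- (adjusted p = 0.000778). The epithelial markers summed to 523 to 1468 CPM in 6-week Fas+/+ and 139.7 to 404 CPM in 6-week Fas-/- libraries. Lrrc32 was higher in Fas+/+ (0.58 ± 0.15, adjusted p = 0.0347). Fbn2 (3.06 ± 0.74, adjusted p = 0.0191) and Mmp2, a gelatinase that can release latent TGF-beta (0.91 ± 0.21, adjusted p = 0.0142), were higher in Fas-/-. A difference between genotypes in these changes was tested only as the comparison of Fas-/- with Fas+/+, which follows.

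Between genotypes the main edgeR fit called 0 of the 55 at 3 weeks, at 6 weeks or for the change of the genotype difference with time. In that fit 4, 8 and 6 of them had an unadjusted p under 0.05, beside 1359, 1273 and 1210 of all 15773 genes. DESeq2 called 0 of the 55 at 3 weeks, 2 at 6 weeks and 1 for the change with time, beside 1.06%, 1.08% and 0.647% of all genes. The study's own DESeq2 comparison reported Col1a1 and Col7a1, both on this list, among the genes higher in 6-week Fas-/-. The main edgeR fit called neither. Of all genes, that fit called 4 higher in 6-week Fas-/-, and the DESeq2 alternative called 50 higher. The study reported more genes as higher there, and the cause of that difference was not tested. Which 2 of the 55 the DESeq2 alternative called was not recorded, so Col1a1 and Col7a1 cannot be compared between the methods. The list's median log2 difference was -0.09 at 3 weeks and 0.09 at 6 weeks. Without the 4 endothelial-rich libraries the fit called 2 of the 55 higher and 8 lower in 3-week Fas-/-, where 8.13% of all 15846 genes tested were called in either direction. Smad3, a signalling SMAD, was higher (0.34 ± 0.08, adjusted p = 0.0150), as was Ltbp4 (0.43 ± 0.12, adjusted p = 0.0311). The lower genes included Eng and Acvrl1, receptors of endothelial cells (-0.78 ± 0.12 and -0.91 ± 0.15, adjusted p = 0.00161 and 0.00200), the inhibitor Smad6 (-1.08 ± 0.20, adjusted p = 0.00403) and the latent TGF-beta anchor Nrros (-1.81 ± 0.40, adjusted p = 0.0109). The protease Furin (-0.24 ± 0.07, adjusted p = 0.0428) and the targets Col7a1, Il11 and Id1 (-0.76, -1.12 and -0.70, adjusted p = 0.0420, 0.0366 and 0.0244) were lower too. In the libraries kept, the endothelial marker sum was 2854 CPM or more in 3-week Fas+/+ and at most 1259 in 3-week Fas-/-. At 6 weeks the same fit called Mmp2 higher (0.71 ± 0.16, adjusted p = 0.0483) and Itgb6 lower (-1.65 ± 0.33, adjusted p = 0.0394) in Fas-/-, where 0.738% of all genes were called. For the change with time it called 1 of the 55 higher and 1 lower, beside 1.58% of all genes.

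From 3 to 6 weeks, 5 of the 55 were higher and 22 lower in Fas+/+ (median -0.33), beside 12% and 10.9% of all genes. In Fas-/- 3 were higher and 7 lower (median -0.12), beside 4.48% and 4.54%. Smurf1 fell by 0.47 ± 0.06 in Fas+/+ and fell by 0.25 ± 0.06 in Fas-/- (adjusted p = 0.000131 and 0.0204), and Skil fell by 0.51 ± 0.08 and fell by 0.42 ± 0.08 (adjusted p = 0.000486 and 0.00580). Of the 6 genes lower than naive at 3 weeks in Fas+/+ and the 9 in Fas-/-, 3 then rose in both genotypes, namely Ltbp4 (0.89 ± 0.13 and 0.65 ± 0.13, adjusted p = 0.000219 and 0.00599), Bambi (0.82 ± 0.12 and 0.55 ± 0.12, adjusted p = 0.000266 and 0.0106) and Nox4 (0.66 ± 0.14 and 0.57 ± 0.14, adjusted p = 0.00263 and 0.0181). The same 3-week libraries enter both comparisons, so a rise after a fall may be partly built in. The share of all genes that fell and then rose was not computed, so this count is only a description. Itgb6 rose in Fas+/+ (1.64 ± 0.34, adjusted p = 0.00240), as did Smad3 (0.44 ± 0.14, adjusted p = 0.0354).

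Other genes that were lower at 6 than at 3 weeks included the transcription factor Bhlhe40, which fell by 1.28 ± 0.28 in Fas+/+ and fell by 1.25 ± 0.28 in Fas-/- (adjusted p = 0.00318 and 0.0114). The gelatinase Mmp9 fell by 2.63 ± 0.62 and fell by 2.56 ± 0.62 (adjusted p = 0.00578 and 0.0176). In Fas+/+ Furin, which cleaves the TGF-beta precursor, fell by 0.50 ± 0.08 (adjusted p = 0.000317), Fbn2 fell by 3.34 ± 0.71 (adjusted p = 0.00289), Tgif1 fell by 1.15 ± 0.24 (adjusted p = 0.00256) and the anchoring collagen Col7a1 fell by 2.40 ± 0.50 (adjusted p = 0.00263). In Fas-/- Timp1, a protease inhibitor, fell by 2.22 ± 0.55 (adjusted p = 0.0196) and the integrin subunit Itgb3 fell by 0.68 ± 0.19 (adjusted p = 0.0368).

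Across the 20 bulk libraries, the genes with the pattern most like each of the 10 are given by Pearson's r of log2 CPM, as a description over libraries that share their groups. Tgfb1 was most like Ass1, Fam129b and Inf2 (r 0.974, 0.969 and 0.969). Ltbp2 was most like 1500009L16Rik, Csmd1 and Pde1b (0.979, 0.964 and 0.955), Tgfbr2 like Plppr3, Ptger1 and Gpr176 (0.963, 0.948 and 0.945) and Tgfbr3 like Slc25a23, Gstm1 and Slc29a1 (0.967, 0.966 and 0.960). Smad7 was most like Pcnx, Cdc42bpb and Bicd2 (0.959, 0.953 and 0.951). Ltbp1 was most like Fgfr1, Sidt2 and Myof (0.952, 0.927 and 0.923) and Ltbp3 like Setbp1, 9530068E07Rik and Igsf3 (0.941, 0.940 and 0.933). Tgfb2 and Tgfb3 both had Smo among their nearest genes (0.914 and 0.893), beside P3h3 and Emc10 for Tgfb2 (0.917 and 0.902) and Wscd2 and Oxct1 for Tgfb3 (0.915 and 0.903). Tgfbr1 was most like Zbtb38, Irf2bpl and Foxo3 (0.916, 0.862 and 0.856). Among the 10 genes themselves, Tgfbr3 ran against Tgfb1 (r = -0.930), Ltbp2 (-0.860) and Tgfbr2 (-0.822). Smad7 ran against Ltbp1 (-0.808) and Tgfb2 (-0.802). Tgfbr2 and Ltbp2 ran together most closely (0.914), then Ltbp1 and Ltbp3 (0.848) and Tgfb3 and Ltbp3 (0.793). Tgfb1 and Ltbp2 were at 0.718.

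The single-cell libraries show which cells carried these transcripts. With 1 library per condition no test was possible, and values are the unique molecular identifiers (UMIs) of a gene over all UMIs of the cells named, as UMIs-per-million (UPM), with 95% exact Poisson intervals that cover counting error only. Of 13900 barcodes, 12059 cells were kept, 603 in naive and 2608 to 3240 in the bleomycin libraries, with a median of 5768 to 8896 UMIs a cell. Any pair of libraries shared 91 to 289 barcodes. In the naive library 350 of the 603 kept cells (58.0%) had a barcode also found in another library, with a median of 11972.5 UMIs against 4520 for the rest. In the bleomycin libraries 6.08% to 14.8% of cells did, with medians of 758 to 1133.5 UMIs. Levels of the 10 genes in the naive library are therefore given with and without these cells, of which 253 remain. The doublet caller marked 49 of 12059 cells (0.406%), and no cell was removed on its calls. The sort gated out doublets before loading, which does not cover droplets that took up more than 1 cell.

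The single-cell libraries also did not follow the bulk order of the weeks. Tgfb1 in all cells was at 28.3 UPM (24.1 to 33.1) in the library labelled naive, or 36.8 (27.2 to 48.9) without cells of shared barcode. It was at 38.3 (36.0 to 40.7) and 41.9 (38.9 to 45.1) in the libraries labelled 3-week Fas+/+ and Fas-/-, and at 118 (114 to 121) and 107 (103 to 110.3) in those labelled 6-week Fas+/+ and Fas-/-. The 8 profibrotic markers summed to 2199, 1975, 3012, 8512 and 13211 UPM in the same order. In bulk Tgfb1 was lower at 6 than at 3 weeks in both genotypes, and these markers summed to 4502 to 5598 CPM in 6-week Fas+/+ and 5729.9 to 9672 CPM in 6-week Fas-/-, below the 14794 to 24517 CPM given above. No direction with time is therefore drawn from the single-cell libraries, and they are named by their labels.

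Cells were placed in classes from marker genes, and the 10 genes were not used for clustering. The named classes were lipofibroblast-like (1607 cells), Col14a1 fibroblast-like (985), profibrotic fibroblast-like (679, with 0 in the naive library), inflammatory fibroblast-like (2050), airway smooth muscle or ductal myofibroblast-like (532), vascular smooth muscle-like (575), pericyte-like (958), mesothelial-like (702), blood endothelial-like (1738, of which 1104 in the library labelled 6-week Fas+/+), lymphatic endothelial-like (94), epithelial-like (202), erythroid-like (481) and platelet-like (36). A further 1420 cells stayed unnamed. At a clustering resolution of 0.4 the profibrotic fibroblast-like class held 2572 cells, 74 of them in the naive library, and no cluster was named inflammatory fibroblast-like. Ranges below run over the 4 bleomycin libraries, for classes with at least 20 cells in a library. Erythroid-like and unnamed cells are left out of the orders below. The erythroid-like cells held a median of 1541 UMIs and 24515 UPM of profibrotic fibroblast markers, with Tgfb1 at 63.4 to 265 UPM and Ltbp2 at 498 to 587. Class names were rebuilt from markers and may differ from those of the study.

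**Figure D4:**
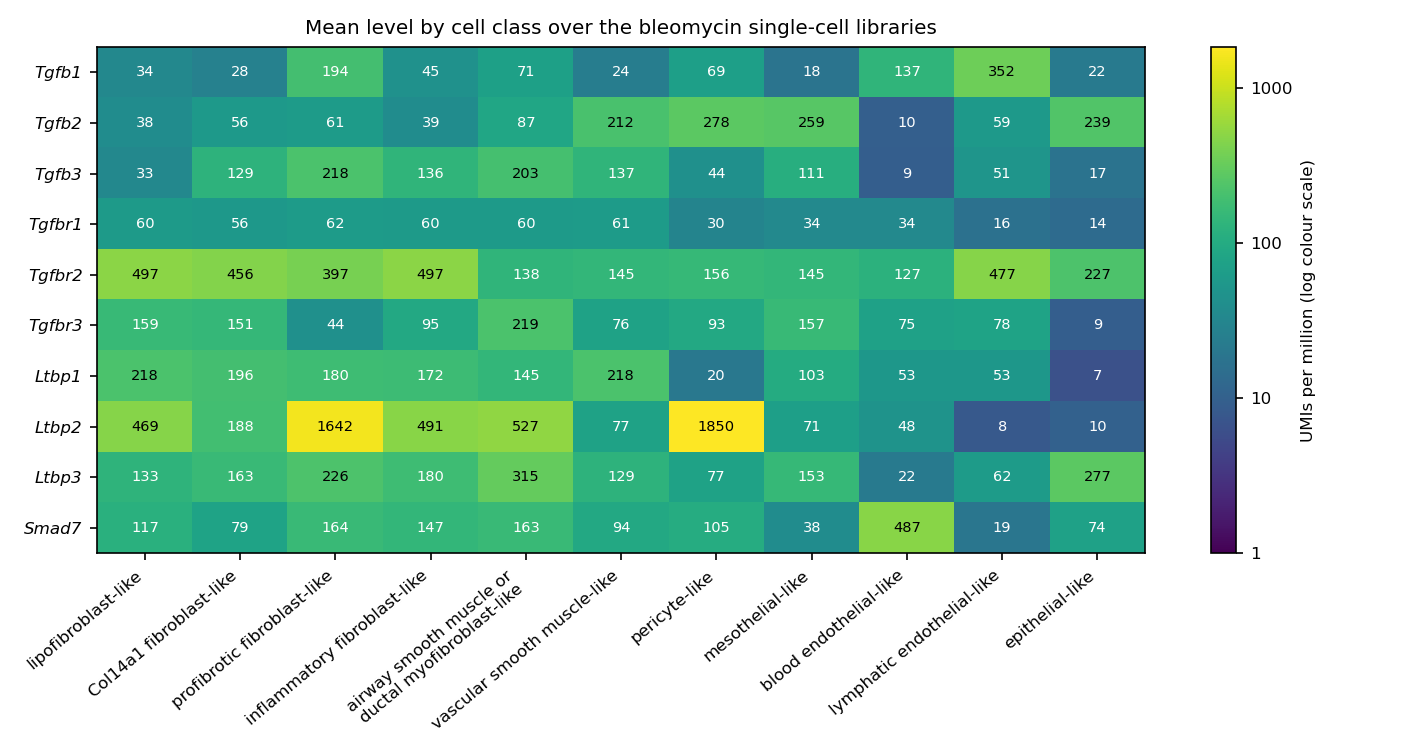
UMIs-per-million (UPM) of each gene (rows) in each cell class (columns), as the mean over the bleomycin libraries with at least 20 cells of the class, on a log colour scale with the value in each field and without erythroid-like, platelet-like and unnamed cells. Ltbp2 in pericyte-like cells (1850.3) and profibrotic fibroblast-like cells (1642) holds the highest values.

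The 3 ligands differed in their order over the classes, but Tgfb1 and Tgfb3 shared a class near the top. Among the other named classes with at least 20 cells in 2 or more libraries, Tgfb1 was highest in lymphatic endothelial-like cells (321 to 383 UPM in 2 libraries), then in profibrotic fibroblast-like (115 to 276) and blood endothelial-like cells (121 to 153), and had its lowest mean in mesothelial-like cells (13.2 to 23.9). The 20 platelet-like cells of the library labelled 3-week Fas+/+ held 25 UMIs, or 1061 UPM (687 to 1566). Tgfb2 was highest in pericyte-like (192 to 398), mesothelial-like (225 to 297), epithelial-like (155 to 293) and vascular smooth muscle-like cells (154 to 322), whose ranges overlapped, and lowest in blood endothelial-like cells (4.64 to 16.05). Tgfb3 was highest in profibrotic fibroblast-like (152 to 306) and airway smooth muscle or ductal myofibroblast-like cells (187 to 231), and lowest in blood endothelial-like cells (3.32 to 13.9).

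Each receptor had its own distribution over the classes. Tgfbr2 was at 363 to 536 UPM in the 4 fibroblast classes, at 461 to 493 in lymphatic endothelial-like cells, and at 114 to 202 in pericyte-like, mesothelial-like, both smooth muscle and blood endothelial-like cells. Tgfbr3 was highest in airway smooth muscle or ductal myofibroblast-like cells (186 to 300.3), and profibrotic fibroblast-like cells, at 28.9 to 66.2, had the lowest mean of the mesenchymal classes (43.7). Tgfbr1 lay at 50.2 to 71.2 in the 4 fibroblast and both smooth muscle classes and at 21.4 to 38.4 in pericyte-like, mesothelial-like and blood endothelial-like cells.

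Among the latency proteins, Ltbp2 was at 1664 to 2329 UPM in pericyte-like and 1439 to 1898 in profibrotic fibroblast-like cells, and the next class in the order, airway smooth muscle or ductal myofibroblast-like, was at 209 to 796. Ltbp1 was the reverse for pericyte-like cells, at 13.8 to 25.6, and was highest in vascular smooth muscle-like (169.6 to 300.5) and lipofibroblast-like cells (207 to 227). Ltbp3 was highest in airway smooth muscle or ductal myofibroblast-like (305 to 319.6) and epithelial-like cells (215 to 309) and lowest in blood endothelial-like cells (14.5 to 27.9).

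Smad7 was highest in blood endothelial-like cells, at 424 to 609.8 UPM, and at most 199 in every other named class. In the library labelled 6-week Fas+/+ those cells held 47.0% of all Smad7 UMIs (95% exact binomial interval 45.7% to 48.2%) and were 34.1% of the cells. They held 24.7% of its Tgfb1 UMIs (23.4% to 26.01%), and profibrotic fibroblast-like cells, 5.52% of the cells, held 32.7% (31.2% to 34.1%). In the library labelled 6-week Fas-/- profibrotic fibroblast-like cells were 8.46% of the cells and held 45.4% of Tgfb1 UMIs (43.8% to 47.1%). Because sorting was meant to remove CD31+ cells, shares of endothelial-like cells depend on the sort.

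**Figure D5:**
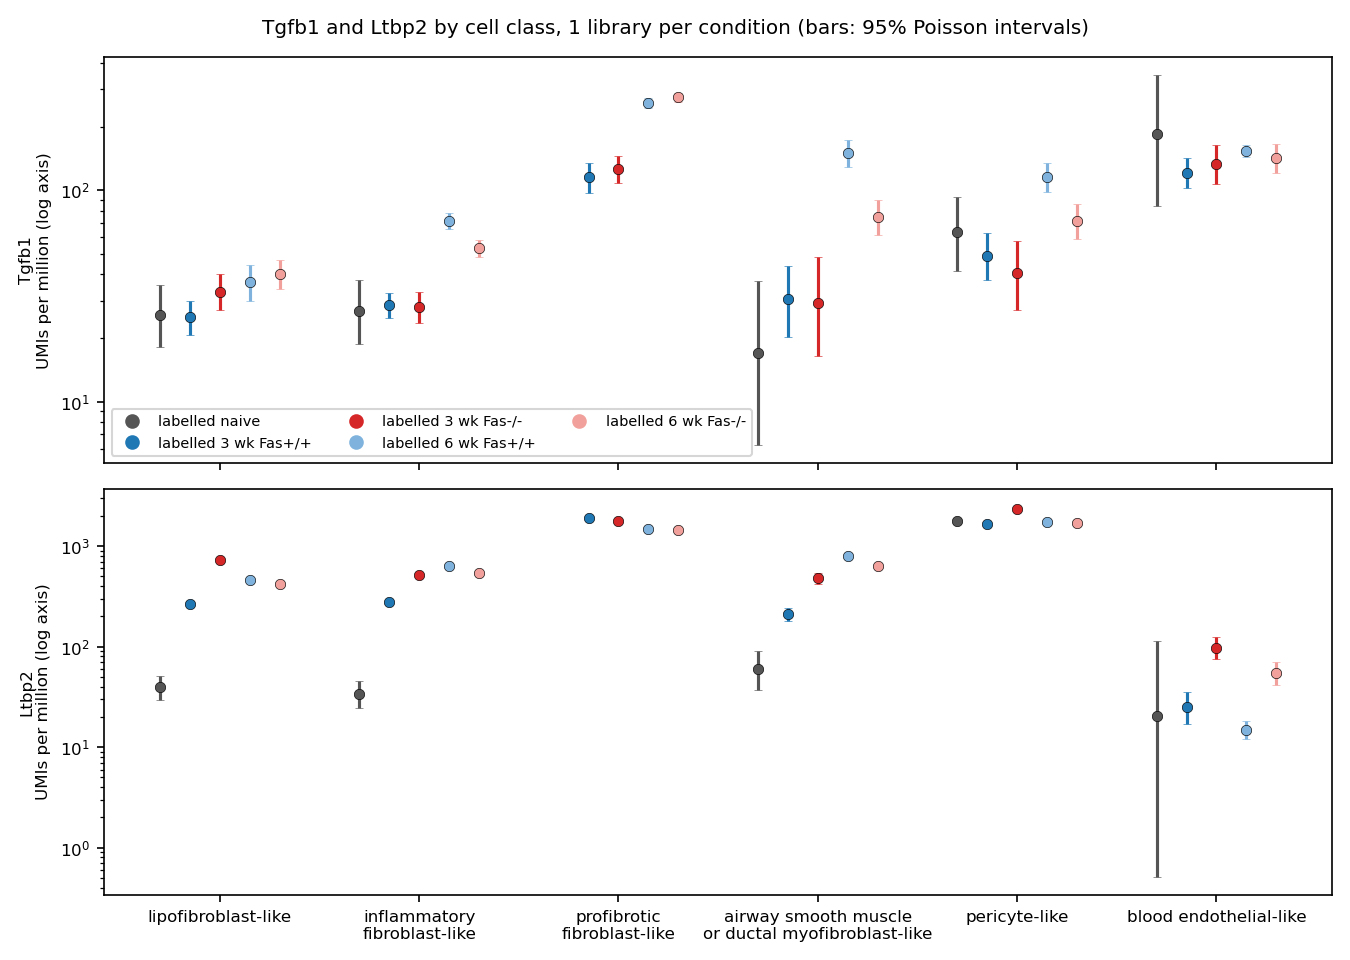
Tgfb1 and Ltbp2 in UMIs-per-million (UPM, log axes) in 6 cell classes, 1 point per single-cell library with its 95% Poisson interval; the naive library had 0 profibrotic fibroblast-like cells. Ltbp2 in pericyte-like cells lies at 1664 to 2329 in all 5 libraries, while in lipofibroblast-like cells the naive library lies at 39.4 and the others at 268 to 727.

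The 5 inflammatory fibroblast markers summed to 53.4 UPM over all naive cells, and to 385 to 1188 UPM in the bleomycin libraries. The naive cells placed in that class may therefore be unlike those of the bleomycin libraries. Against the naive library, Ltbp2 was higher in several classes to which naive cells were also assigned. In lipofibroblast-like cells it was at 39.4 UPM (29.7 to 51.3) in the naive library, 39.8 (23.2 to 63.7) without cells of shared barcode. It was at 268, 727, 459 and 423 in the libraries labelled 3-week Fas+/+, 3-week Fas-/-, 6-week Fas+/+ and 6-week Fas-/-. In inflammatory fibroblast-like cells it was at 33.9 (24.6 to 45.5) in the naive library, 17.4 (4.75 to 44.7) without shared barcodes, and at 277, 515, 633 and 540.3 in the others. In airway smooth muscle or ductal myofibroblast-like cells it was at 59.6 (36.9 to 91.0), or 32.2 (8.76 to 82.3), and then at 209, 477, 796 and 628. No interval of a bleomycin library reached the naive one in these classes. In pericyte-like cells the naive library was at 1788 (1661 to 1922), or 1896 (1704 to 2105), and the libraries labelled 3-week Fas+/+ (1595 to 1736), 6-week Fas+/+ (1657 to 1796) and 6-week Fas-/- (1617 to 1750) had intervals that overlapped it. Only the library labelled 3-week Fas-/- lay above it (2329, with an interval of 2220.4 to 2441). Pericyte-like cells were 14.4% of the naive cells and held 74.0% of their Ltbp2 UMIs (71.2% to 76.7%). Without shared barcodes they were 22.1% of the cells and held 90.5% (87.2% to 93.2%).

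Tgfbr2 was also higher in the bleomycin libraries. In lipofibroblast-like cells it was at 231 UPM (207 to 258) in the naive library, 222 (179.98 to 272) without shared barcodes, and at 451, 519.98, 496 and 522 in the bleomycin libraries. In inflammatory fibroblast-like cells it was at 311 (281 to 343), or 231 (173 to 302), and then at 463, 494, 536 and 495. All bleomycin libraries lay above the naive interval in both classes. The limit given above for the naive inflammatory fibroblast-like cells holds here too.

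Tgfb1 differed by label and by class. Over all mesenchymal classes it was at 28.02 UPM (23.6 to 33.01) in the naive library, or 37.8 (26.8 to 51.6) without shared barcodes, at 32.04 and 38.2 in the libraries labelled 3 weeks and at 102 and 94.1 in those labelled 6 weeks. Both libraries labelled 3 weeks lay inside the naive interval without shared barcodes. Leaving out profibrotic fibroblast-like cells, which the naive library lacked, the bleomycin values were 26.9 and 28.4, then 59.3 and 46.5. In lipofibroblast-like cells Tgfb1 was at 25.8 (18.1 to 35.7) in the naive library, or 49.2 (30.4 to 75.2) without shared barcodes, and at 25.03 to 40.04 in the others. In profibrotic fibroblast-like cells it was at 115 (97.5 to 135) and 126 (109 to 145) in the libraries labelled 3-week Fas+/+ and Fas-/-, and at 259 (246 to 274) and 276 (263 to 289) in those labelled 6 weeks. Ltbp2 in the same cells was at 1898 and 1759.8, then 1469.6 and 1439. Over all mesenchymal classes Ltbp2 was at 389 (381 to 397) and 667 (654 to 680) in the libraries labelled 3-week Fas+/+ and Fas-/-. It was at 749 (738 to 760) and 686 (677 to 696) in those labelled 6-week Fas+/+ and Fas-/-. By label, Ltbp2 was therefore higher in Fas-/- at 3 weeks and lower at 6 weeks, and the 6-week order was opposite to that in bulk. The difference between these libraries was not tested. Tgfbr3 over all mesenchymal classes was at 165 (154 to 177) in the naive library, or 214 (187 to 244) without shared barcodes, and at 143, 113, 107 and 92.2 in the libraries labelled 3-week Fas+/+, 3-week Fas-/-, 6-week Fas+/+ and 6-week Fas-/-. Fas in the same classes was at 62.0 (58.8 to 65.3), 36.7 (33.7 to 39.9), 61.4 (58.3 to 64.6) and 62.0 (59.2 to 65.0) in these libraries. These UMIs are counted over the whole gene, and by that measure Fas was lower in Fas-/- by label at 3 weeks and not at 6 weeks. The study reported fewer cells expressing the deleted exon in Fas-/- at both times.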

How the data were processed

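Lin- lung cells of 5 groups were sequenced as 20 bulk libraries and 5 single-cell libraries. The authors trimmed bulk reads with skewer, aligned them with Hisat2 to GRCm38 and counted them per gene with htseq-count, and the deposited values are raw counts; the single-cell matrices hold deposited UMI counts from Cell Ranger. Samples were grouped by their titles, and no file or library was left out of the main fits.

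The 10 genes, the pathway list and the marker lists were chosen with earlier results of these data known. Bulk counts were filtered with filterByExpr (minimum count 10), scaled by TMM and tested in 1 fit of all groups with edgeR 4.0.16 (quasi-likelihood F test, R 4.3.3). P-values were adjusted by Benjamini-Hochberg over all 15773 genes and called at 0.05. SEs are the log2 fold change divided by the root of F. CPM and RPKM were computed from the counts, RPKM over merged exons of GENCODE M21 (GRCm38). Single values were compared by a two-sided exact permutation test. Pathway genes named are up to 3 per role, direction and comparison, by smallest adjusted p. The alternatives were RLE normalization, no filter, DESeq2 1.42.0, the groups alone, a replicate block, each library left out and 4 endothelial-rich libraries left out. The scripts were tested on simulated data.

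Barcodes were kept between 200 and 7500 detected genes when mitochondrial transcripts made up 20% or less, and were integrated with Seurat 5.3.0 and sctransform 0.4.2 (2888 features, 20 components, resolution 0.8), leaving out the 10 genes, the listed genes and Fas as features. A cluster was named for the class with the highest mean log2 ratio over its markers (pseudocount 10, mean at least 0.5, at least 3 markers at a ratio of 1 or more). Intervals used scipy 1.17.1, and doublets were called with Scrublet in scanpy 1.11.5. Depth limits low single-cell levels, and intervals cover counting error only.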

Additional observations from a re-analysis of the deposited data

Results flagged for a closer look

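In 6 of 55 groups of 4 libraries tested for the 10 genes and Fas, 1 library lay farther from the other 3 than Dixon's 95% limit allows, and chance flags about 1 in 20 such groups. Replicate 1 of 3-week Fas+/+ was far from its group for Smad7 (251 CPM, others 111 to 119) and for Ltbp3 (351 CPM, others 592 to 625). Replicate 4 of 3-week Fas-/- was far from its group for Smad7 (195 CPM, others 97.0 to 99.0), Ltbp3 (443 CPM, others 626 to 655) and Tgfb2 (41.4 CPM, others 68.0 to 72.8). These libraries held the most endothelial marker RNA, and its part in these values was not tested. Replicate 4 of 6-week Fas+/+ was high for Tgfb3 (448 CPM, others 327 to 339).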

How the results depend on the processing

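No called change of the 10 genes reversed under any alternative. Of the 5 genes called in 3-week Fas+/+ against naive, 3 were called with these groups fitted alone. The share of all genes called was 41.3% in the main fit and 32.6% with these groups alone. In 6-week Fas+/+ against naive 1 gene was called, and 2 were with RLE normalization, 2 with DESeq2, 4 with the groups alone, 4 without the 4 endothelial-rich libraries and 0 to 2 with each library left out. Of all genes, 5.31% were called there in the main fit, 9.02% with DESeq2, 10.7% with the groups alone and 9.62% without the 4 libraries. RLE normalization called 555 genes higher and 310 lower. Without 6-week Fas+/+ replicate 1 there were 681 higher and 315 lower, and without replicate 2 there were 305 and 110. From 3 to 6 weeks in Fas+/+ 2 were called, and 1 was with no filter, 1 with the groups alone and 1 to 3 with each library left out. The share of all genes was 22.9% in the main fit and 19.2% with the groups alone. With no filter 1516 of 28881 genes were higher and 1319 lower. Without 3-week Fas+/+ replicate 1 there were 2574 higher and 2305 lower, and without replicate 3 there were 1331 and 1167. In Fas-/- 1 was called, and 2 were with DESeq2, 2 with the groups alone and 3 without the 4 libraries. These counts stood beside 9.02%, 13.2%, 7.87% and 16.7% of all genes. Of the 55 pathway genes, 8 were called in 6-week Fas+/+ (13 with the groups alone) and 8 in 6-week Fas-/- (17 alone, 21 without the 4 libraries). The share of all genes called rose too, from 5.31% to 10.7% in Fas+/+ with the groups alone, and from 6.48% to 8.86% and 11.7% in Fas-/-. Between genotypes 0 were called at 3 weeks (10 without the 4 libraries) and 0 at 6 weeks (2 with DESeq2, 2 without the 4 libraries, 0 to 1 with each library left out, the 1 without 6-week Fas+/+ replicate 1). Of 16029 genes tested without that library, 1 was called higher and 19 lower. From 3 to 6 weeks in Fas-/- 10 were called, 26 without the 4 libraries (beside 9.02% and 16.7% of all genes) and 5 to 11 with each library left out (5 without 3-week Fas-/- replicate 2 or 6-week Fas-/- replicate 3, 6 without 6-week Fas-/- replicate 1). Of all genes, 706 were higher and 716 lower in the main fit. Leaving out these libraries gave 386 and 308, 341 and 227, and 481 and 416, in the order named. For the change of the genotype difference 0 were called, 1 with DESeq2, 2 without the 4 libraries and 0 to 1 with each library left out, the 1 without 3-week Fas+/+ replicate 1. Of 16013 genes tested without that library, 40 were called higher and 122 lower. The cause of these differences was not tested. With the replicate block, the counts over the 10 genes were 5, 4, 1 and 4 against naive, 0 and 0 between genotypes, 2 and 1 between weeks and 0 for the change with time, as without it. Between libraries of the same replicate number, 14 of 40 pair correlations were over 0.1 (r -0.716 to 0.486). Libraries of different number were not compared, so these values do not decide whether the numbers pair the samples. Another 57 fold changes of the 10 genes are not printed. Of these, 23 had another sign in at least 1 alternative and 0 were called with it.

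In single cells, 496 of 510 levels stayed within their interval with at most 10% mitochondrial UMIs, 472 of 500 without shared barcodes, 388 of 480 at resolution 0.4 and 330 of 500 when cells were thinned to 3000 UMIs.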
